A study of Mus musculus with 67 samples.

Results

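The 10 genes followed here encode proteins that classical (Ly6C+) mouse monocytes secrete, and they were picked by symbol out of the 24421 genes listed in each of 3 expression tables. They are the chitinase-like proteins Chil3 and Chil1, the matrix proteins Fn1, Vcan and Thbs1, the matrix enzymes F13a1 and Mmp8, and the defence and acute-phase proteins Hp, Saa3 and Lyz2. Each symbol was found once in every table. The genes were chosen as products of Ly6C+ cells, with earlier results of these data known. Counts of genes lower in Ly6C- cells therefore follow in part from the choice. The shares of all genes beside such counts are given for scale only. The study title asks about the dependence of Ly6C- monocytes on the transcription factor C/EBPb, and 67 poly(A) RNA sequencing libraries in 28 groups were used.

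The 7-week table held 25 libraries from C57BL/6 mice aged 7 weeks. From marrow there were 4 libraries of the monocyte-dendritic progenitor (MDP), 4 of the committed monocyte progenitor (cMoP), 3 of Ly6C+ and 4 of Ly6C- monocytes; from blood there were 4 of Ly6C+, 3 of Ly6Cint and 3 of Ly6C- monocytes. The knockout table held 16 libraries, 2 per group. It had wild-type (wt) blood Ly6C+, Ly6Cint and Ly6C- monocytes and knockout (ko) blood Ly6C+ and Ly6Cint monocytes, all from 16-week-old mice labelled as of mixed background, with MDP, cMoP and marrow Ly6C+ cells of 8-week-old C57BL/6 mice; no ko Ly6C- library was analysed here. The labels do not name the deleted gene, and its cell type or promoter of deletion is not given. The transfer table held 26 libraries from C57BL/6 mice aged 8 weeks, 2 per group: marrow Ly6C+ monocytes before transfer, the grafted cells recovered from blood and from spleen at 24, 36 and 48 h, and the hosts' own Ly6C+, Ly6Cint and Ly6C- cells of both tissues at 24 h. Blood graft libraries are called AC and B and spleen graft libraries B and C, as labelled; whether AC pools mice is not stated. The labels do not say that replicates are separate animals, so p-values may measure technical spread only.

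Classical monocytes leave the marrow with Ly6C on their surface, and in blood they can turn into the Ly6C- patrolling cells that stay along vessel walls. Many of the proteins they release act outside the cell, on clots, matrix or microbes. Fibronectin is a part of provisional matrix, which factor XIII cross-links. Versican and thrombospondin-1 shape the space around cells, and lysozyme and haptoglobin belong to innate defence. C/EBPb is a leucine-zipper transcription factor of myeloid cells that is known to bind promoters of acute-phase and granule genes.

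Promoters of 4 of the genes are shown because Chil3, Chil1 and Saa3 were among the genes that were lower in ko cells, described further on, and F13a1 was the one that was higher. A RefSeq promoter on GRCm38.p6 was found for 7 genes (8 windows, since F13a1 has 2), and those of Fn1, Hp and Thbs1 are named only. Each line gives the 250 bases before the annotated start, 5′ to 3′ on the gene's strand, and capitals mark matches of a C/EBP-like pattern, TTNCNNAA or its reverse TTNNGNAA. Chil3 lies at chr3:106167565-106167814 (minus strand), Chil1 at chr1:134181906-134182155 (plus strand), Saa3 at chr7:46715677-46715926 (minus strand) and the first F13a1 window at chr13:37050245-37050494 (minus strand).
Chil3: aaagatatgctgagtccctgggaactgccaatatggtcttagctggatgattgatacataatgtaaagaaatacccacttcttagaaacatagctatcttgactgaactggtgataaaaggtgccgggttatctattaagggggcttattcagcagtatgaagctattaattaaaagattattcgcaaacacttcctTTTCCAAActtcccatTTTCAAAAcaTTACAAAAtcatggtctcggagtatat
Chil1: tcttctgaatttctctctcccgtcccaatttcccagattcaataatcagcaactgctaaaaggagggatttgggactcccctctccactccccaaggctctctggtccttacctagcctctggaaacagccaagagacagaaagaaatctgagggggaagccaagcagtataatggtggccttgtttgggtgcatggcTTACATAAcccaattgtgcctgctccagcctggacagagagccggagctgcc
Saa3: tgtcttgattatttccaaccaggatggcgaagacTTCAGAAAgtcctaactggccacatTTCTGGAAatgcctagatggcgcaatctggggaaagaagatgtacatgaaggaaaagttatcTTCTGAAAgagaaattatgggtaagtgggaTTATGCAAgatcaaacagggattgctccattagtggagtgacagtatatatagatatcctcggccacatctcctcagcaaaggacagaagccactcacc
F13a1: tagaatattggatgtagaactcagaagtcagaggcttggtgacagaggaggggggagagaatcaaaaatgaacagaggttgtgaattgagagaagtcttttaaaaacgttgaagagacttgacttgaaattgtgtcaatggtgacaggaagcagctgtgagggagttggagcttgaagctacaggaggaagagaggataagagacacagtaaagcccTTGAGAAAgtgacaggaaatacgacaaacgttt
Saa3 held 4 matches, Chil3 held 3, Mmp8 held 2, and Chil1, Lyz2 and the first F13a1 window held 1 each. The 3 Chil3 matches lie within the last 53 bases before the start. Neither the Vcan window nor the second F13a1 window held a match. Vcan was also called lower in ko Ly6C+ cells, and Hp and Lyz2 in ko Ly6Cint cells. The 4 printed windows all hold a match and leave out these genes, so they do not stand for all genes lower in the ko. Such a match is common, since 36.8% of 32851 RefSeq promoter windows of this length hold at least 1, and it is a description of letters, not a bound site.

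Levels below are in RPM, the reads of a gene scaled to its library's total, with the mean ± SD where given. Depth was 577690 to 3643327 recovered reads per library in the 7-week table and 942751 to 5478761 in the knockout table, so that a listed 0 allows up to 0.58 to 3.34 RPM and 0.439 to 2.50 RPM (3 reads, counting error only); for the transfer table no depth can be given. Replicate pairs correlated across genes at r from 0.65 to 0.989 (54 pairs), and the lowest were the grafts from blood at 24 h (0.65) and 48 h (0.667) and from spleen at 48 h (0.669), which also listed fewer genes above 0 (7734 to 8761) than the pretransfer cells (11574 to 11719). The Ly6C label held in the RNA: Ly6c2 was at 2465 to 3055 RPM in 7-week blood Ly6C+ cells and at 10.9 to 53.9 RPM in Ly6C- cells. Differences were tested with limma on log2(RPM + 1) over all genes that passed a filter on low values, with adjusted p under 0.05 as the threshold; fold changes of low genes are understated on that scale.

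In the 7-week marrow the secreted-protein genes rose by different amounts at each step. Between MDP and cMoP, 4 of the 9 tested genes rose (Hp, Chil3, F13a1 and Lyz2) and none fell, where 5.2% of all genes tested rose. From cMoP to Ly6C+ monocytes 7 rose, where 15.3% of all genes rose; the members' median difference was 2.96 on the log2 scale and that of all genes -0.17. Chil1 was not tested in this table, because it stayed at or below 0.856 RPM in all 25 libraries.

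Hp, the haemoglobin-binding acute-phase protein, and F13a1, the clot-stabilising transglutaminase, were at 511 RPM or more in every cMoP library. F13a1 was at 231 RPM or more already in MDP. Hp was at 90.01, 98.9, 99.9 and 77.6 RPM in the MDP libraries, at 568, 618, 557 and 511 RPM in cMoP and at 1108, 1395 and 1281 RPM in marrow Ly6C+ cells. The 3 groups did not overlap, and the step to cMoP was 2.61 ± 0.14 (SE) on the log2 scale (limma adjusted p = 9.67e-14). F13a1 was at 231, 301, 302 and 279 RPM in MDP, at 610.1, 695, 628 and 624 RPM in cMoP and at 1237, 1327 and 1067 RPM in Ly6C+ cells. Its groups did not overlap either; its rise to cMoP (1.203 ± 0.35, limma adjusted p = 0.0228) was lost without MDP replicate 1 or 4 or cMoP replicate 2 or 3 (adjusted p 0.0506 to 0.0752), with no filter on low values (0.0513) or after scaling to the listed genes (0.0548), and the further step to Ly6C+ cells missed the threshold (0.92 ± 0.38, adjusted p = 0.0552).

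The chitinase-like protein Chil3 (Ym1), the matrix protein fibronectin (Fn1) and lysozyme M (Lyz2) had their larger rise late, from cMoP to Ly6C+ cells. Chil3 and Lyz2 did rise from MDP to cMoP, 2.21-fold and 2.16-fold (limma adjusted p = 0.00431 and 3.38e-05), and these calls held without any 1 library. Fn1 was at 19.9, 11.03, 10.8 and 10.8 RPM in MDP, at 14.7, 22.0, 20.002 and 20.3 RPM in cMoP and at 1482, 1374 and 1287 RPM in marrow Ly6C+ cells. That last step was 71.7-fold, or 6.10 ± 0.27 on the log2 scale (limma adjusted p = 9.53e-17). Chil3 went from 34.8 ± 6.65 RPM (SD, n = 4) in cMoP to 1674, 1757 and 1106 RPM in Ly6C+ cells, a 43.4-fold rise, and Lyz2 from 174 ± 23.5 RPM to 3612, 3770 and 3310 RPM, a 20.5-fold rise. Both steps were far larger than the spread between replicates (limma adjusted p = 5.01e-14 and 2.54e-16). For Lyz2 and Chil3 the split of reads from the near-identical Lyz1 and Chil4 is uncertain; Lyz1 took 9.52% to 42.6% of the sum of the pair in this table and Chil4 at most 1.51% of its pair.

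The neutrophil collagenase Mmp8 and the low-level matrix genes followed the late pattern. Mmp8 stayed at 5.71 to 10.006 RPM in MDP and at 5.51 to 7.85 RPM in cMoP and was at 163, 137 and 114 RPM in marrow Ly6C+ cells (4.13 ± 0.49 on the log2 scale, limma adjusted p = 8.04e-08). Vcan, the large proteoglycan versican, was at 10.04, 10.3 and 7.25 RPM in those cells (40 reads in all), against at most 0.824 RPM in any cMoP library. Thbs1, the clot and matrix protein thrombospondin-1, was at 6.18, 5.47 and 2.90 RPM, against 1 read over the 4 cMoP libraries. Vcan and Thbs1 both passed the limma test (adjusted p = 1.96e-08 and 7.56e-07). The acute-phase apolipoprotein Saa3 differed little (0.71 ± 0.52, limma adjusted p = 0.296), with 34 reads in cMoP and 18 in Ly6C+ cells. Neutrophil markers summed to 95.9 to 132 RPM in cMoP and to 352 to 503 RPM in marrow Ly6C+ libraries. In marrow Ly6C- libraries the sum was 110 to 751 RPM. In blood it was 186 to 314 RPM in Ly6C+ and 71.2 to 116 RPM in Ly6C- libraries. Their part in the Mmp8 level was not tested.

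Between marrow and blood Ly6C+ monocytes, 1 gene was higher in blood (Vcan; 7.32% of all genes) and 1 lower (F13a1; 18.7%). F13a1 was at 643, 515, 488 and 524 RPM in blood, below every marrow library, a difference of -1.16 ± 0.38 (limma adjusted p = 0.0226). Vcan was at 20.7, 20.7, 18.5 and 12.0 RPM in blood, above every marrow library (0.88 ± 0.32, adjusted p = 0.0444). The F13a1 call was lost without marrow replicate 1 or 3 (adjusted p 0.0655 and 0.0808) and with no filter (0.0529). The Vcan call was lost without any 1 of the marrow replicates or of blood replicates 1 to 3 (adjusted p 0.0679 to 0.16) and under 5 other settings (0.0582 to 0.147). Fn1, Hp, Lyz2 and Thbs1 differed by at most 0.13 on the log2 scale between the tissues, and their libraries overlapped.

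**Figure D1:**
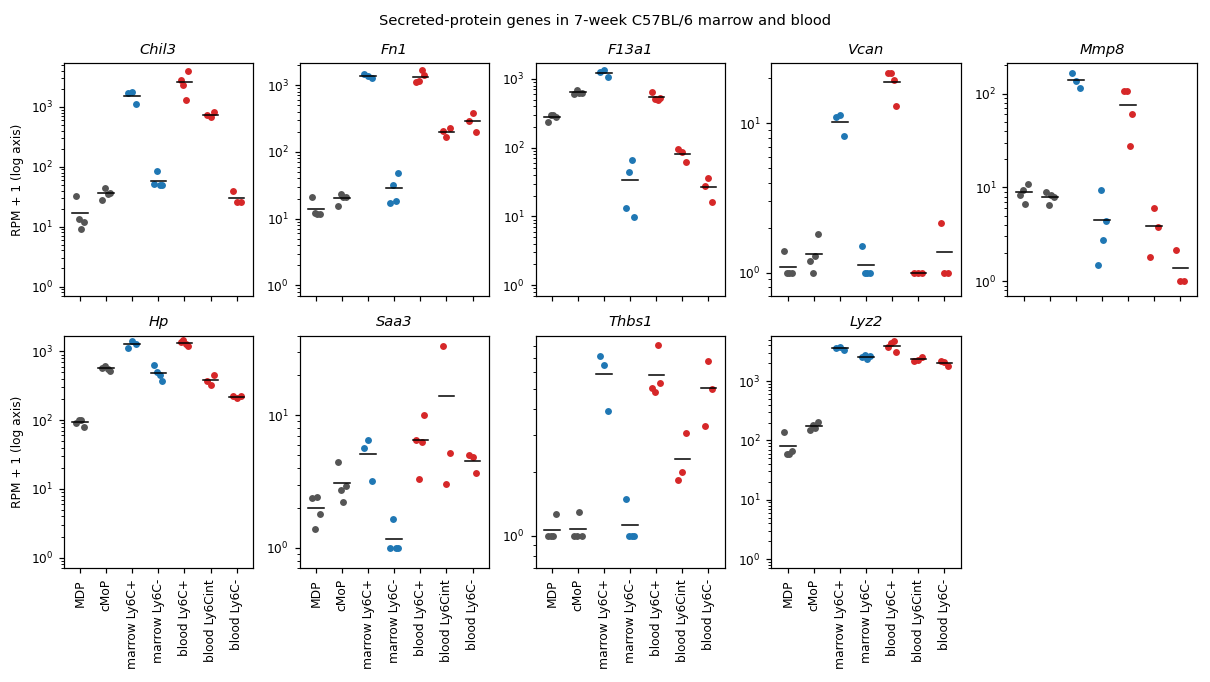
Levels of the 9 tested secreted-protein genes in the 25 libraries of 7-week-old mice, by sorted group (x axis), as RPM + 1 on a log axis; each point is 1 library (progenitors grey, marrow monocytes blue, blood monocytes red) and the bar marks the group mean. Hp and F13a1 are at 511 RPM or more in cMoP, whereas Fn1, Chil3 and Lyz2 have their larger rise at the step to Ly6C+ monocytes, and Lyz2 alone of the abundant genes stays at or above 1817 RPM in Ly6C- cells.

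Blood Ly6Cint cells had lost most of these transcripts. Of the 9 tested genes, 8 were lower in Ly6Cint than in Ly6C+ cells, where 19.2% of all genes were lower, and Saa3 was the exception. The Thbs1 call among them was lost with edgeR (adjusted p = 0.109), DESeq2 (0.145), array weights (0.0513) and a fit of the 2 groups alone (0.084). In Ly6C- cells 7 were lower than in Ly6C+ cells (10.5% of all genes), with Saa3 and Thbs1 the 2 that did not pass. The members' median difference was -2.60 on the log2 scale and that of all genes 0.00. In such sorted bulk samples, fewer cells that make a transcript and less RNA per cell cannot be told apart.

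Chil3 fell in 2 steps. It was at 2756, 2275, 1294 and 3974 RPM in blood Ly6C+ libraries, at 740.4, 676 and 808 RPM in Ly6Cint and at 38.8, 25.1 and 24.7 RPM in Ly6C-. The groups did not overlap, and the second step (-4.63 ± 0.34, limma adjusted p = 6.07e-10) was larger in size than the first (-1.69 ± 0.32, adjusted p = 0.000329); the difference between the steps was not tested. Mmp8 went from 105, 106, 26.4 and 59.3 RPM to 0.835, 5.06 and 2.78 RPM in Ly6Cint, and Vcan to 0 reads in all 3 Ly6Cint libraries. Both genes were thus near the limit of detection already in Ly6Cint cells.

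F13a1 and Hp kept falling. F13a1 was at 95.2, 84.0 and 61.3 RPM in Ly6Cint and at 26.6, 34.7 and 15.3 RPM in Ly6C- cells; its second step (-1.66 ± 0.40, limma adjusted p = 0.0119) was lost without Ly6C- replicate 3 (adjusted p = 0.0973). Hp was at 1378, 1464, 1292 and 1194 RPM in Ly6C+ cells, at 364, 327 and 447 RPM in Ly6Cint and at 224, 206 and 224 RPM in Ly6C-. Hp therefore kept 16.4% of its Ly6C+ level, far more than Chil3 (1.15%) or F13a1 (4.71%).

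Fn1 behaved otherwise. It was at 1105, 1157, 1669 and 1434 RPM in Ly6C+ cells, at 203, 168 and 228 RPM in Ly6Cint and at 289, 379.9 and 195 RPM in Ly6C- cells, so that it did not fall again after Ly6Cint (0.48 ± 0.29, limma adjusted p = 0.301). Thbs1 was lower in Ly6Cint (0.835, 1.01 and 2.09 RPM) than in Ly6C- cells (2.32, 5.78 and 4.004 RPM) and was the 1 gene higher at that step (7.25% of all genes higher; 1.62% lower, against 3 genes here, Chil3, F13a1 and Hp). That call rests on 5 and 19 reads and was lost without Ly6Cint replicate 1 or 2 or Ly6C- replicate 2 or 3 (adjusted p 0.107 to 0.205), and neither edgeR nor DESeq2 made it on the recovered reads. Platelets also hold Thbs1, F13a1 and Fn1 proteins; platelet markers summed to 2.50 to 25.1 RPM in Ly6Cint and to 3.34 to 19.3 RPM in Ly6C- libraries, with 7 of 12 at 0 in both groups; their part in the result was not tested.

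Of the genes called lower in Ly6C- cells Lyz2 kept the largest share. It went from 3752, 4315, 4691 and 3066 RPM in Ly6C+ cells to 2142, 2293 and 2534 RPM in Ly6Cint and 2186, 2120 and 1817 RPM in Ly6C- cells. The drop to Ly6C- (-0.94 ± 0.20, limma adjusted p = 0.00111) left 51.6% of the Ly6C+ mean. The drop to Ly6Cint (-0.75 ± 0.20, adjusted p = 0.0075) missed the threshold with edgeR (adjusted p = 0.0689) and DESeq2 (0.0664). Saa3 stood at 5.57, 2.30, 5.28 and 9.02 RPM in Ly6C+ cells and at 32.6, 2.02 and 4.18 RPM in Ly6Cint, where replicate 1 alone was high.

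Marrow Ly6C- cells were low in these transcripts too, and for 4 genes the difference from Ly6C+ cells depended on the tissue. Of the 9 tested genes, 8 were lower in marrow Ly6C- than in marrow Ly6C+ cells (29.1% of all genes), all but Lyz2 (-0.47 ± 0.20, limma adjusted p = 0.0692). Fn1 was at 16.4, 30.7, 17.6 and 46.7 RPM in marrow Ly6C- cells, 2.02% of marrow Ly6C+, against 21.5% in blood. The test of that difference between tissues gave 3.46 ± 0.38 on the log2 scale (adjusted p = 3.17e-07), with blood Ly6C- cells the ones that kept more Fn1. Thbs1 differed in the same direction (2.12 ± 0.46, adjusted p = 0.00147), and 14.3% of all genes had such a positive difference.

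For Chil3 and Hp the tissue difference ran the other way. Chil3 was at 50.8, 82.3, 48.0 and 48.9 RPM in marrow Ly6C- cells, 3.80% of the marrow Ly6C+ mean, against 1.15% in blood (-1.62 ± 0.45, limma adjusted p = 0.0122). Hp was at 625, 499, 449 and 366 RPM, 38.4% of marrow Ly6C+ (-1.20 ± 0.22, adjusted p = 0.000266); 3.53% of all genes had a negative difference. All 4 calls held without any 1 library. Marrow Ly6C- libraries also held more erythroid marker RNA (sum 718 to 1850 RPM) than marrow Ly6C+ libraries (3.86 to 180 RPM), more tissue macrophage marker RNA (733 to 978 against 175 to 283 RPM) and more B cell marker RNA (55.6 to 84.6 against 21.6 to 38.3 RPM). Their part in these differences was not tested.

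Levels of different genes can be set side by side only per length. In 7-week blood Ly6C+ cells, in RPM per kilobase of transcript, Lyz2 led with 3006, followed by Chil3 with 1673, Hp with 990, Fn1 with 161 and F13a1 with 141. Mmp8 (30.6), Saa3 (9.99), Vcan (1.45) and Thbs1 (0.822) followed far below. Fn1 and F13a1 are close neighbours in that order, and their RPM spreads (262 and 68.8 RPM SD) leave their places uncertain.

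In 16-week wt blood the Ly6C- cells were lower for all 10 genes, a count that the choice of genes favours. Of all genes 5.68% were lower. Here Chil1 (the chitinase-like protein also called YKL-40 or BRP-39) passed the filter: it was at 450 and 432 RPM in Ly6C+, at 215 and 225 RPM in Ly6Cint and at 106 and 103 RPM in Ly6C- cells, an even descent with tight replicates. Its Ly6C- cells kept 23.7% of the Ly6C+ level (-2.07 ± 0.35, limma adjusted p = 0.00101). Fn1 fell to 14.3 and 55.0 RPM from 1353 and 1269 RPM, and kept 2.64%, so that the high remainder seen in 7-week blood Ly6C- cells was not seen at 16 weeks. Thbs1 rests on 25 reads in Ly6C+ cells and 1 in Ly6C- cells, and its call was lost without either Ly6C- replicate or Ly6C+ replicate 1 (adjusted p 0.0626 to 0.127). The other 9 calls held without any 1 library.

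Chil1 differed between the tables. In the 7-week table it had 0 reads in all 10 blood libraries, whereas in the 16-week wt blood Ly6C+ cells it had 3461 reads over 2 libraries. The transfer table listed it at 576 and 454 RPM in host blood Ly6C+ cells of 8-week-old mice and at 467 and 438 RPM in host spleen, while marrow Ly6C+ cells had 1.75 and 2.63 RPM before transfer in that table and 4.29 and 12.5 RPM in the knockout table. The progenitors differed too: MDP had at most 0.856 RPM at 7 weeks but 27.3 and 22.3 RPM at 8 weeks, and cMoP at most 0.604 RPM against 14.01 and 14.99 RPM. In the knockout and transfer tables the marrow Ly6C+ libraries lay below all blood Ly6C+ libraries, wt, ko or host. The 7-week and 8-week mice carry the same strain label, and only the 16-week mice are labelled as of mixed background. The tables were made separately, and age and processing cannot be told apart in this difference. For the 16-week mice, background cannot be told apart from these either.

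The ko label was checked on Cebpb, the gene the study title names. Cebpb was at 804 and 693 RPM in wt and at 115 and 57.2 RPM in ko Ly6C+ cells, and at 1734 and 1242 RPM in wt and 186 and 67.1 RPM in ko Ly6Cint cells. It was lower in both ko sorts (-3.19 ± 0.38, limma adjusted p = 0.000551, and -3.70 ± 0.38, adjusted p = 4.82e-05), though reads remained.

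In ko Ly6C+ monocytes 3 of the 10 genes were lower and none higher, where 0.465% of all genes were lower. Vcan was at 47.2 and 33.2 RPM in wt and at 5.87 and 3.90 RPM in ko cells, 8.22-fold lower in the ko. Saa3 was at 26.002 and 26.5 RPM in wt and at 0.652 and 2.60 RPM (5 reads) in ko. Chil3 was at 322 and 1426 RPM in wt and at 69.8 and 37.7 RPM in ko, so that the wt replicates stood far apart but above both ko libraries. In limma the differences were -2.81 ± 0.44 for Vcan (adjusted p = 0.00435), -3.48 ± 0.65 for Saa3 (0.0176) and -3.70 ± 0.84 for Chil3 (0.0468).

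None of these 3 calls held without each library in turn. With wt Ly6C+ replicate 1 left out no call remained, and with any other of the 4 libraries left out 1 remained; the adjusted p of the lost calls was 0.0571 to 0.574. The Chil3 call was also lost with a pseudocount of 0.5 (0.0571), with no filter (0.111) and after scaling to the listed genes (0.0562). The libraries did not overlap for any of the 10 genes, the ko being the lower for 9 and the higher for F13a1. With so few libraries on each side, such a separation often arises by chance. The share of all genes that separate in this way was not counted, so the separation is given as a description only. Chil1 (450 and 432 RPM in wt, 137 and 218 RPM in ko; -1.35 ± 0.35, limma adjusted p = 0.0816), Hp (1375 and 1314 RPM against 839 and 918 RPM; adjusted p = 0.124) and Thbs1 (adjusted p = 0.109) came next. F13a1, at 659 and 501 RPM in wt and 825 and 1152 RPM in ko, did not pass (0.76 ± 0.52, adjusted p = 0.766).

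In ko Ly6Cint monocytes 4 genes were lower (2.7% of all genes) and 1 was higher (3.63%). Chil1 was at 215 and 225 RPM in wt and at 27.1 and 17.7 RPM in ko, 9.79-fold lower (-3.26 ± 0.35, limma adjusted p = 6.98e-05). Hp was at 587 and 584 RPM in wt and at 144 and 174 RPM in ko, 3.68-fold lower (-1.88 ± 0.17, adjusted p = 2.34e-05). These 2 calls held without any 1 library and under every other setting tried. Chil3 (39.2 and 334 RPM against 13.1 and 8.59 RPM; -3.32 ± 0.84, adjusted p = 0.0279) and Lyz2 (4825 and 6122 RPM against 2776 and 3399 RPM; -0.82 ± 0.21, adjusted p = 0.0322) were also lower, and both calls were lost without either ko library or wt replicate 2 (adjusted p 0.0895 to 0.244), with no filter (0.0704 and 0.0728) and in a fit of the 2 groups alone (0.0823 and 0.116).

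F13a1 went against the others: it was at 32.6 and 62.0 RPM in wt Ly6Cint and at 239 and 328 RPM in ko Ly6Cint, 5.99-fold higher (2.61 ± 0.52, limma adjusted p = 0.00659; 0.0895 without ko replicate 2 and 0.0614 without wt replicate 1). Fn1 lay the same way, at 75.2 and 111 RPM against 195 and 269 RPM, without passing the test (1.31 ± 0.44, adjusted p = 0.103). Ly6c2 was at 93.7 and 185 RPM in the wt and at 347 and 470.4 RPM in the ko Ly6Cint libraries (adjusted p = 0.0728), higher in both ko libraries than in either wt library. Tissue macrophage markers summed to 195 to 203 RPM in wt and to 570 to 1006 RPM in ko Ly6Cint libraries, with 3 of 11 at 0 in both and 5 of 9 tested called higher (Cd163, C1qb, C1qa, C1qc and Axl); in Ly6C+ cells the sums were 161 to 232 RPM and 367 to 437 RPM. The T and NK cell marker sum was 18.6 to 29.9 RPM in wt and 71.4 to 96.4 RPM in ko Ly6Cint libraries. The part of these in the results was not tested.

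Whether the ko difference depended on the sort was tested as an interaction, and limma called none of the 10 genes (0.00878% of all genes, in either direction). At an unadjusted p under 0.05 there were 8, DESeq2 called 2 and edgeR 0, so a dependence on the sort was neither called nor shown to be absent. The largest values were 2.71 ± 0.92 for Saa3, 2.45 ± 0.63 for Vcan and -1.92 ± 0.49 for Chil1.

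**Figure D2:**
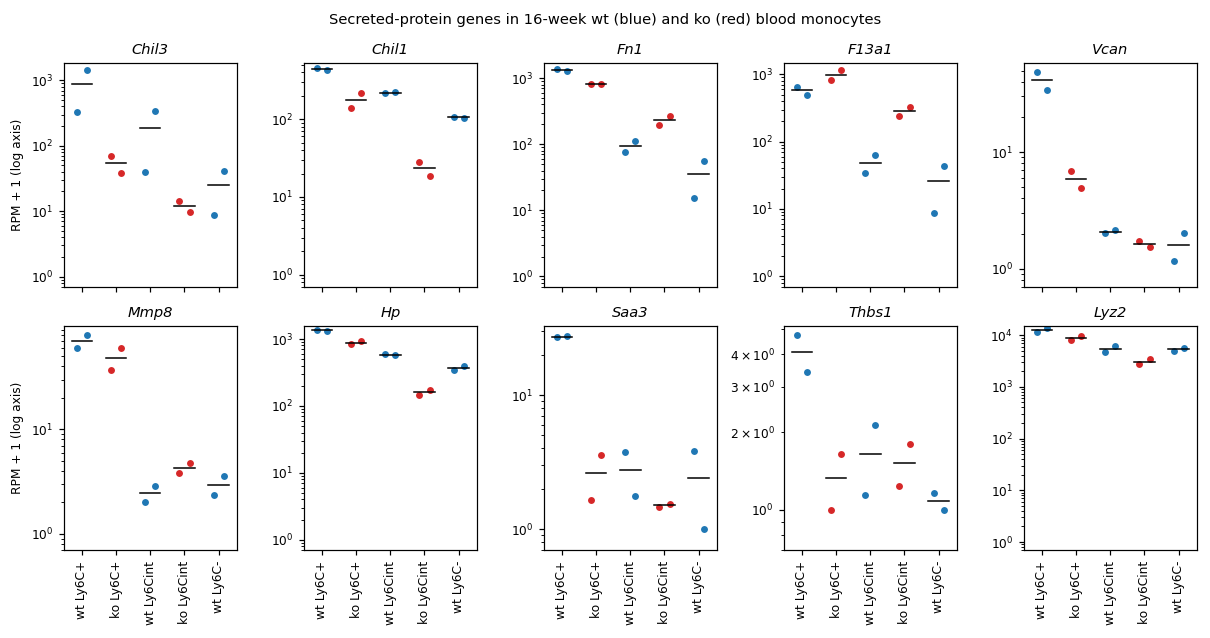
Levels of the 10 genes in the 10 blood libraries of 16-week-old wt (blue) and ko (red) mice, by sort (x axis), as RPM + 1 on a log axis; each point is 1 library and the bar marks the mean of the 2. Chil1 and Hp are lower in both ko Ly6Cint libraries than in both wt ones, whereas F13a1 is higher there.

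The 8-week marrow cells of the same table gave the late pattern again without a test of their own. Fn1 was at 2.89 and 5.86 RPM in MDP, at 32.8 and 20.6 RPM in cMoP and at 1731 and 1395 RPM in Ly6C+ cells, and Lyz2 at 203 and 207, 520.4 and 369.7, and 9401 and 10646 RPM. Chil3 was higher in these progenitors than at 7 weeks, at 149 and 206 RPM in MDP and at 158 and 141 RPM in cMoP. Neutrophil markers, whose cells also make Chil3, summed to 3425 to 4722 RPM in these 4 progenitor libraries, with none of 12 at 0; their part in the Chil3 level was not tested.

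After transfer the genes fell to different depths and not all at once. Comparisons against the pretransfer cells share the same 2 control libraries. Those cells came from marrow, so a difference between marrow and blood or spleen cannot be told apart from a change after transfer. In grafts from blood, 7 genes were lower and 1 higher than in pretransfer cells at 24 h (10.3% and 2.98% of all genes), 6 lower at 36 h (3.46%) and 8 lower at 48 h (12.8%). In grafts from spleen, 2 were lower at 24 h (2.91%), 5 at 36 h (3.15%) and 7 at 48 h (11%). As a share of the pretransfer mean, the median of the 10 genes was 17.5%, 12.2% and 0.461% in blood and 20.1%, 13.6% and 0.485% in spleen; all genes tested had a median difference of -0.53, -0.25 and -0.49 in blood and -0.21, -0.14 and -0.45 in spleen on the log2 scale, a shift in the same direction that is smaller in size.

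Of the 6 genes above 100 RPM before transfer, Mmp8 and Fn1 kept the least in blood at 24 h. Mmp8 was at 203 and 186 RPM before transfer and at 13.6 and 2.63, 10.1 and 5.70, and 0 and 0 RPM in blood grafts at 24, 36 and 48 h, the libraries being AC and B at each time. Fn1 was at 1488 and 1473 RPM before transfer and at 40.8 and 141, 79.7 and 88.1, and 26.3 and 0 RPM. The means of Mmp8 and Fn1 were thus at 4.16% and 6.14% at 24 h, at 4.05% and 5.67% at 36 h and lower still at 48 h. The 24 h libraries stood far apart for both genes. The difference between 24 and 36 h was called for neither and changed sign when 1 library was left out, so no course between these times is read. In spleen Mmp8 was at 29.4 and 40.8 RPM (18.0%) and Fn1 was at 127 and 280 RPM (13.7%) at 24 h, and at 0 and 1.31 RPM and 9.20 and 7.45 RPM at 48 h.

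F13a1 was lower than before transfer at every time and near 0 at 48 h in blood. It was at 1990 and 1780 RPM before transfer, at 223 and 207, 137 and 76.7, and 1.31 and 0 RPM in blood grafts, and at 307 and 274, 186 and 142, and 14.0 and 1.31 RPM in spleen grafts. Each time the libraries lay below those of the time before. The differences from pretransfer in blood were -3.13 ± 0.61, -4.19 ± 0.61 and -10.27 ± 0.61 on the log2 scale (limma adjusted p = 0.00137, 7.52e-05 and 1.33e-10). Of the 10 genes, F13a1 alone was called lower at 48 than at 36 h in both tissues (limma adjusted p = 2.33e-05 in blood and 0.000144 in spleen). Both calls held without any 1 library, though each was lost in a fit of the 2 groups alone (0.212 and 0.225).

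Chil3 fell more slowly and kept a remainder. It was at 3028 and 2800 RPM before transfer, at 605 and 607, 583 and 929, and 234 and 149.9 RPM in blood grafts, and at 979 and 1635, 531 and 553, and 306 and 293 RPM in spleen grafts. At 48 h 6.58% was left in blood and 10.3% in spleen (limma adjusted p = 2.6e-06 and 3.21e-05). In blood the mean did not fall between 24 and 36 h, though graft AC at 36 h (583 RPM) lay below both libraries at 24 h. In spleen the 24 h libraries stood far apart and did not pass the limma test (adjusted p = 0.161).

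Hp lost less still. It was at 1647 and 1739 RPM before transfer, at 667 and 900.5, 428 and 490, and 317 and 314 RPM in blood grafts and at 511 and 563, 495 and 480, and 492 and 415 RPM in spleen grafts. In blood it fell over all 3 times, to 46.3%, 27.1% and 18.6%, whereas in spleen it was down to 31.7% by 24 h and then at 28.8% and 26.8%. As a share of the host blood Ly6C+ mean, Hp in blood grafts was at 89.5%, 52.4% and 36.1%. Against host spleen Ly6C+ cells, Hp in spleen grafts was at 58.3%, 52.9% and 49.2%. Hp was called lower at each of the 3 times in both tissues (adjusted p between 1.31e-05 and 2.95e-08 apart from 0.000671 in blood at 24 h), and none of these 6 calls was lost without any 1 library.

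Lyz2 did not leave its pretransfer range by much. It was at 12074 and 12960 RPM before transfer and at 13209 and 14601, 13556 and 12594, and 10936 and 12463 RPM in blood grafts, or 111%, 104% and 93.5%. In spleen it was at 112%, 73.1% and 92.2%. As a share of the host blood Ly6C+ mean, Lyz2 in blood grafts was at 93.6%, 88.0% and 78.8%. Against host spleen Ly6C+ cells, Lyz2 in spleen grafts was at 67.2%, 43.9% and 55.4%. Against pretransfer cells Lyz2 passed the test at no time (limma adjusted p 0.235 to 0.974). The largest difference was -0.46 ± 0.20 on the log2 scale, at 36 h in spleen. At 36 h in blood Lyz2 was called lower by limma after quantile normalization (-0.68, adjusted p = 0.0384).

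The 3 low-level genes gave less sure orders. Vcan was at 74.5 and 85.9 RPM before transfer, at 0 and 22.8, 6.13 and 10.1, and 0 and 0 RPM in blood grafts, and at 8.33 and 27.2, 40.3 and 4.38, and 0 and 0 RPM in spleen grafts. Saa3 was at 39.9 and 35.9 RPM before transfer; in blood grafts at 24 h library AC was at 0 and library B at 39.0 RPM, its pretransfer level, and later no blood library exceeded 1.31 RPM. Thbs1 was at 15.8 and 11.8 RPM before transfer, at 0 in 4 of 6 blood graft libraries, and in spleen at 48 h at 14.0 RPM in library B and 0 in library C. The pairs of Saa3 at 24 h and of Thbs1 at 48 h span 0 to the starting level, so no order is read from them. All 12 platelet markers were at 0 in the spleen grafts at 48 h, libraries of unknown depth. The source of the Thbs1 value in library B alone was not tested.

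Chil1 alone was called higher in a graft. It was at 1.75 and 2.63 RPM before transfer, at 21.9 and 26.7, 0 and 7.01, and 11.8 and 0 RPM in blood grafts, and at most 6.13 RPM in spleen grafts. The call at 24 h in blood (3.00 ± 0.90, limma adjusted p = 0.0293) was lost without any 1 of the 4 libraries (adjusted p 0.0613 to 0.174). At no time did the grafts come near the hosts' blood Ly6C- cells, at 155 and 129 RPM.

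Ranked by the mean share kept at 24 h in blood, from the least, the order was Thbs1, Mmp8, Fn1, F13a1, Vcan, Chil3, Hp, Saa3, Lyz2 and Chil1, and in spleen it was Saa3, Thbs1, Fn1, F13a1, Mmp8, Vcan, Hp, Chil3, Lyz2 and Chil1. The places of Saa3 are listed but not read, since its libraries span 0 to 102.9% in blood and 0 to 19.7% in spleen. Vcan in blood, at 0 to 28.4%, is likewise unsure. Among the 6 genes above 100 RPM before transfer, Mmp8, Fn1 and F13a1 came before Chil3 and Hp, and Lyz2 came last, in both tissues and at all 3 times. With the host Ly6C+ mean of the same tissue as the reference this held too, except in spleen at 36 h. There Lyz2 (43.9%) lay below Hp (52.9%). The shares that follow are again of the pretransfer mean. The libraries of Chil3 lay below those of Hp in blood at 24 h (at most 20.8% against at least 39.4%) and 48 h (8.02% against 18.6%) and in spleen at 36 h (19.0% against 28.4%) and 48 h (10.5% against 24.5%), and overlapped them in blood at 36 h; in spleen at 24 h both Chil3 libraries lay above both of Hp. Fn1 and Mmp8 overlapped in both tissues at 24 h, where F13a1 in blood (10.97% to 11.8%) lay above both. In blood 7 genes were below 50% of pretransfer at 24 h and 8 at 36 and 48 h, and in spleen 8 at each time. At 48 h these were not the same genes. Chil1 was at 270% in blood but at 0 in spleen, from 2.19 RPM before transfer. Thbs1 was at 0 in blood but at 50.8% in spleen. The share of all genes below 50% was not counted, so these counts are a description only. Calls put the first fall at 24 h in blood for Chil3, Fn1, F13a1, Vcan, Mmp8, Hp and Thbs1 and at 36 h for Saa3. In spleen they put it at 24 h for F13a1 and Hp, at 36 h for Chil3, Fn1 and Mmp8 and at 48 h for Vcan and Saa3.

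**Figure D3:**
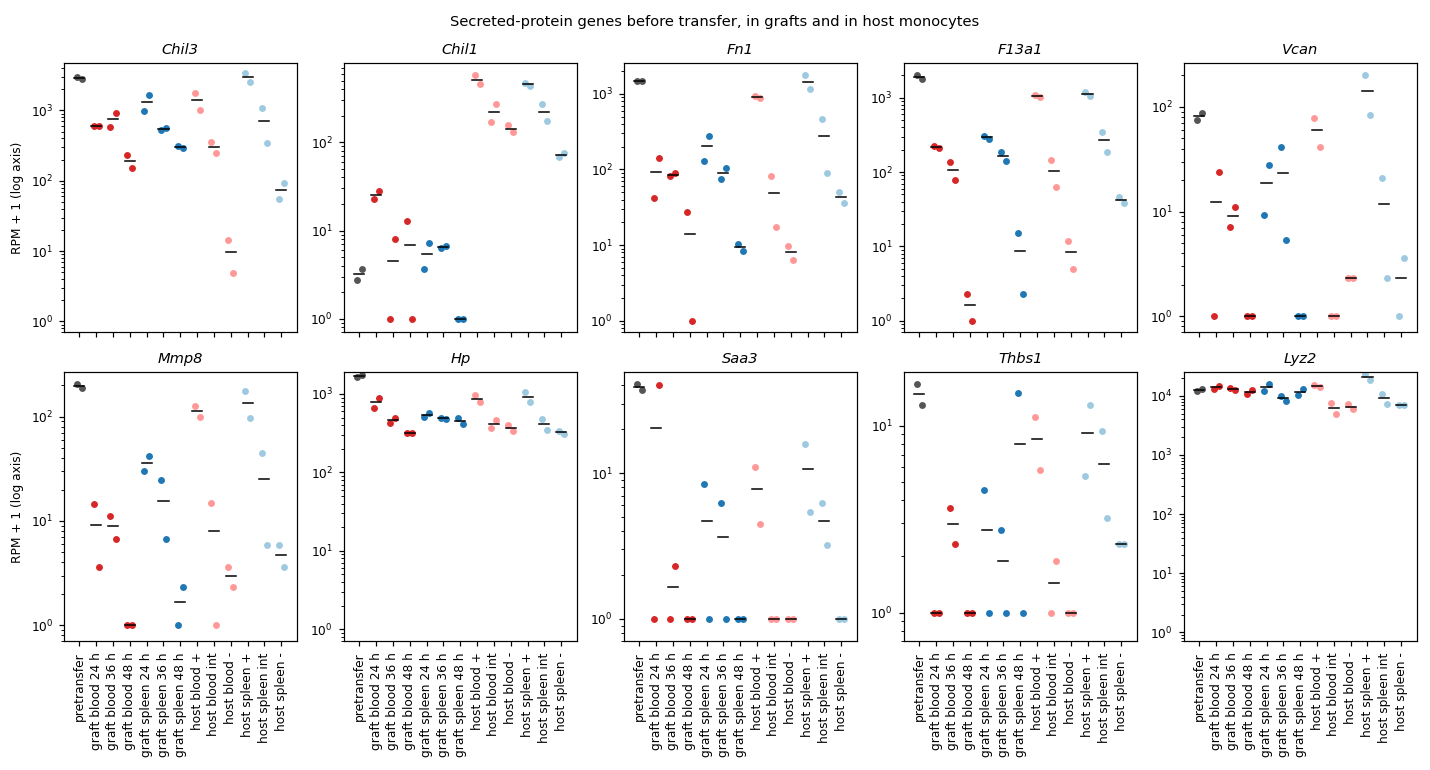
Levels of the 10 genes in the 26 libraries of the transfer table, by group (x axis; +, int and - stand for Ly6C+, Ly6Cint and Ly6C-), as RPM + 1 on a log axis; each point is 1 library (blood red, spleen blue, hosts in the paler shade) and the bar marks the mean of the 2. F13a1 descends from pretransfer cells through the 24 and 36 h grafts to nearly 0 at 48 h, while Lyz2 stays at 8332 to 15884 RPM in every graft.

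**Figure D4:**
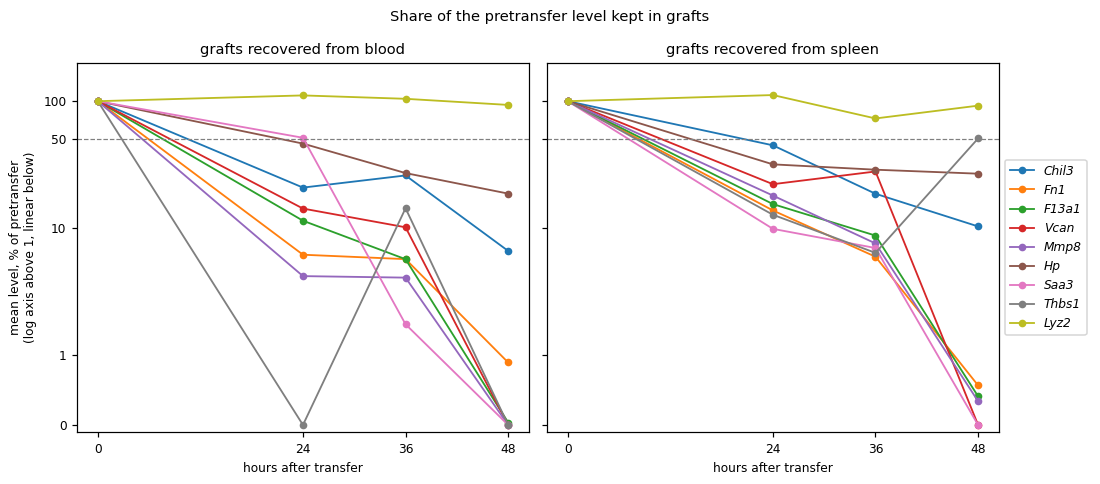
Mean level of 9 genes (without Chil1) in grafts from blood (left) and spleen (right) as a percentage of its pretransfer mean (y axis, log above 1 and linear below), at 24, 36 and 48 h after transfer (x axis), with a dashed line at 50%. Fn1, F13a1 and Mmp8 are the lowest of the 6 abundant genes at each time and are at most 0.888% at 48 h, Chil3 and Hp end between 6.58% and 26.8%, and Lyz2 is between 73.1% and 112%.

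Many of the early calls rest on single libraries. At 24 h in blood, the calls of Chil3, F13a1 and Hp held without any 1 library, and those of Fn1, Vcan, Mmp8, Thbs1 and Chil1 did not (adjusted p of lost calls 0.0504 to 0.431; 3 calls left without either pretransfer library and 5 without graft AC). At 36 h F13a1 and Hp held in blood and Chil3, F13a1 and Hp in spleen (2 or 3 calls left without any 1 library of the comparison in blood, 3 in spleen without graft C or either pretransfer library). By 48 h 7 of 8 calls held in blood, all but that of Thbs1 (0.0589 and 0.0907 without a pretransfer library), and 6 of 7 in spleen, all but that of Saa3 (0.0515 without pretransfer A). In spleen at 24 h the F13a1 call was lost without graft C or either pretransfer library (0.0656 to 0.0993).

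Differences between successive times were fewer. From 24 to 36 h, limma called only Hp in blood (-0.76 ± 0.21, adjusted p = 0.0457; 0.364% of all genes lower), and that call was lost without graft B at 24 h or either graft at 36 h (0.127 to 0.218). None was called in spleen (0.579% of all genes in either direction), with 2 of the 10 at an unadjusted p under 0.05. From 36 to 48 h, Chil3, Fn1 and F13a1 were called lower in blood (1.77%) and F13a1 in spleen (4.37%). At an unadjusted p under 0.05 in limma there were 6 genes in blood and 5 in spleen, in either direction. The calls of Chil3 and Fn1 were lost without either graft at 36 h or graft B at 48 h. Averaged over the 3 times, spleen and blood grafts differed for none of the genes (3.78% of all genes in either direction; 1 of the 10 at an unadjusted p under 0.05), although 2 were called without blood graft AC at 48 h and 1 without blood graft B or spleen graft C at that time.

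Marker RNA of other cells moved with some grafts. Erythroid markers summed to 942 to 7783 RPM in blood grafts and to 13.6 to 24.98 RPM before transfer, with 4 of 7 at 0 before transfer. Platelet markers summed to 84.2 and 1245 RPM, and tissue macrophage markers to 1329 and 4111 RPM, in the spleen grafts at 36 h, against at most 1.75 and 351 RPM before transfer. B cell markers summed to 213 to 434 RPM in spleen grafts at 24 h and to 310 to 751 RPM at 36 h, against 37.7 to 40.3 RPM before transfer, and T and NK cell markers to 83.7 to 121 RPM and 41.6 to 221 RPM, against 16.2 to 21.0 RPM. Their part in the member values was not tested. Ly6c2 fell over the same times, from 4437 and 4010 RPM to 33.3 and 62.7 RPM in blood and 85.9 and 56.97 RPM in spleen at 48 h, while Cebpb was at 1300 to 3667 RPM in the grafts and at 805 and 777 RPM before.

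The hosts' own cells give the level of resident Ly6C- monocytes. In host blood 6 genes were lower in Ly6C- than in Ly6C+ cells (1.98% of all genes) and in host spleen 7 (1.18%). Calls of Chil3, F13a1, Hp and Lyz2 held without any 1 library in both tissues. That of Mmp8 did not hold in blood (0.0549 to 0.107 without Ly6C- library B or either Ly6C+ library), and those of Fn1, Vcan and Mmp8 did not hold in spleen (0.0628 to 0.242; 4 calls left without Ly6C+ library A).

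The grafts at 48 h differed from these cells in 4 genes. In both tissues Chil3 and Lyz2 were higher in grafts than in host Ly6C- cells (0.728% of all genes in blood and 1.01% in spleen) and Chil1 and F13a1 were lower (2.99% and 4.43%). Chil3 in blood was at 234 and 149.9 RPM in grafts and at 13.6 and 3.94 RPM in host Ly6C- cells, 21.9-fold higher (4.47 ± 0.46, limma adjusted p = 3.47e-05), and in spleen 4.09-fold higher (2.07 ± 0.46, adjusted p = 0.0129). Lyz2 was 1.78-fold higher in blood and 1.65-fold in spleen (adjusted p = 0.0241 and 0.0424). F13a1 was at 1.31 and 0 RPM in blood grafts against 10.96 and 3.94 RPM in host cells, so the groups did not overlap.

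Only the Chil3 call in blood and the Chil1 call in spleen held without any 1 library, and in a fit of the 2 groups alone all 4 blood calls were lost (0.0549 to 0.269). In blood the others were lost without either host library, or, for F13a1 and Lyz2, without graft B (0.0532 to 0.343; 1 call left without either host library and 2 without graft B). In spleen Chil3 was lost without host library A, and F13a1 and Lyz2 without graft C or either host library (0.0713 to 0.214; 1 call left without host A, 2 without host B or graft C). The host cells were taken at 24 h and the grafts at 48 h.

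**Figure D5:**
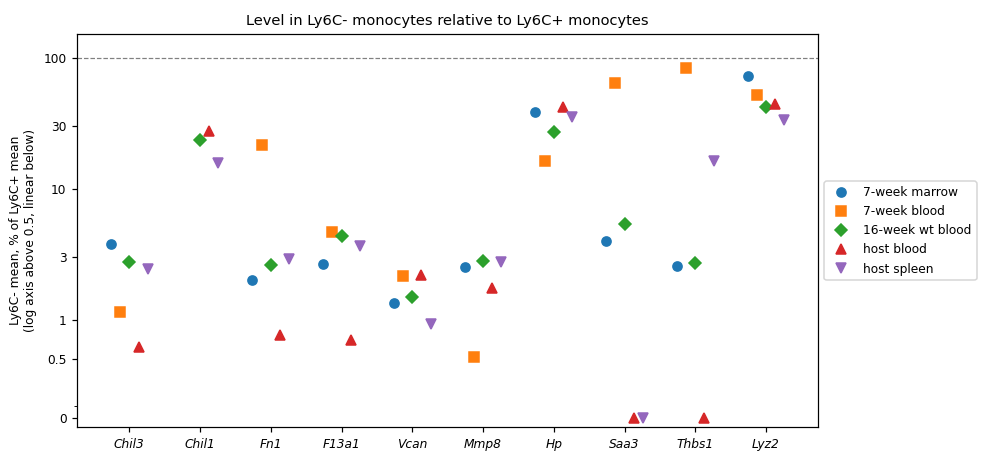
Mean level of each gene in Ly6C- monocytes as a percentage of that in Ly6C+ monocytes of the same setting (y axis, log above 0.5 and linear below), for 7-week blood and marrow, 16-week wt blood, and host blood and spleen. Lyz2 keeps 33.6% to 72.4% and Hp 16.4% to 42.2%, while Chil3 keeps 0.6249% to 3.80%; in 7-week blood Fn1 (21.5%), Saa3 (63.6%) and Thbs1 (83.9%) lie above the other settings. The dashed line marks 100%.

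Across the 5 settings with both sorts, the share that Ly6C- cells kept was set side by side without a test. Chil3 kept 1.15%, 3.80%, 2.77%, 0.6249% and 2.46% in 7-week blood, 7-week marrow, 16-week wt blood, host blood and host spleen. F13a1 kept 4.71%, 2.67%, 4.34%, 0.704% and 3.68%, and Lyz2 51.6%, 72.4%, 42.1%, 44.2% and 33.6%. Fn1 kept 0.762% to 2.92% in 4 settings and 21.5% in 7-week blood. The high share of Fn1 thus belongs to the 3 blood Ly6C- libraries of 7-week-old mice. Marrow of the same age in the same table kept 2.02%. In the difference from the other blood settings, tables, ages and enrichment steps cannot be told apart.

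Genes of the same pathways, taken from 4 fixed lists, moved in both directions. Among coagulation and clot-lysis genes, 10 of 19 were tested in 7-week blood: 3 were higher in Ly6C- than in Ly6C+ cells and 4 lower, with a median of -0.41 against 0.00 for all genes (9.86% higher and 10.5% lower). Tgm2, a transglutaminase like F13a1, rose from 8.64 ± 4.47 to 248 ± 20.2 RPM as F13a1 fell, and F10 (factor X) fell from 176 ± 32.2 to 61.5 ± 6.66 RPM. In blood grafts at 48 h Tgm2 was at 207 ± 0.313 RPM against 3.29 ± 0.31 before transfer (5.60 ± 0.43 on the log2 scale, limma adjusted p = 9.1e-09), with 1 of 13 tested higher and 3 lower (4.41% of all genes higher and 12.8% lower). In spleen grafts 2 were higher and 3 lower (4.02% and 11%), and Thbd, the anticoagulant receptor thrombomodulin, was at 180 ± 45.5 RPM against 37.0 ± 6.51.

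Of 17 genes for receptors of these proteins, 14 were tested in 7-week blood; 6 were higher in Ly6C- cells, none was lower and 8 did not pass (median 0.75). Cd36, a receptor of thrombospondin-1, was at 255 ± 70.4 RPM in Ly6C- and at 6.82 ± 3.83 RPM in Ly6C+ cells, and Itgb1, a chain of fibronectin receptors, at 368 ± 40.9 and 163 ± 40.3 RPM. In grafts at 48 h 6 of 15 were higher in blood and 4 in spleen (4.41% and 4.02% of all genes) and none lower (12.8% and 11%), among them Cd36 (203 ± 54.2 RPM in blood against 2.63 before transfer), Itga4 and Itgb1. The list's medians were 0.64 and 0.60, against -0.49 and -0.45 for all genes.

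In blood grafts at 48 h, where 12.8% of all genes were lower and 4.41% higher, 6 of 19 matrix genes were lower and 1 higher; Lgals1, a secreted lectin, went from 1224 ± 58.9 to 82.6 ± 31.3 RPM, and Srgn, the granule proteoglycan serglycin, from 459 ± 9.60 to 2178 ± 159.5 RPM. Of 18 acute-phase and antimicrobial genes 9 were lower and 3 higher there, with Slpi, a protease inhibitor, falling from 436 ± 7.44 to 19.9 ± 4.65 RPM and Pglyrp1, a peptidoglycan-binding protein, rising from 126 ± 15.5 to 1277 ± 101.7 RPM. In the ko, Pglyrp1 was lower in Ly6C+ (69.3 ± 8.97 against 172 ± 18.6 RPM, limma adjusted p = 0.0182) and in Ly6Cint cells (72.2 ± 10.6 against 679 ± 91.4 RPM, adjusted p = 5.97e-06). Lgals1 was higher in both (adjusted p = 0.00684 and 2.34e-05). The matrix list had 3 of 18 genes higher in ko Ly6C+ cells (0.799% of all genes) and 6 of 18 in ko Ly6Cint cells, and none lower.

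Over the 25 libraries of the 7-week table, the members correlated with each other at Pearson r from -0.25 to 0.93 (36 pairs, median 0.60), a description over libraries that share groups. The genes nearest to each member were listed by r on the log2 scale. For Hp these were Mgst1 (0.98), C3 (0.93) and Cebpd (0.92), and over the 26 transfer libraries the same pairs had r of 0.69, 0.91 and 0.83. For F13a1 they included Galns (0.95 and 0.58) and Tspo (0.95 and 0.84), and for Chil3 they were Ifi205 (0.93 and 0.78), Slfn4 (0.93 and 0.56) and Cib1 (0.93 and 0.58). Lyz2 had Pirb (0.99 and 0.43), Slfn2 (0.99 and 0.54) and Lyz1 (0.99 and 0.76), and Fn1 had Cotl1 (0.96 and 0.42), Anxa2 (0.94 and 0.66) and Lilra6 (0.93 and 0.86). Vcan (Wfdc18, Tnfaip2 and Pabpc1l), Mmp8 (Tmem154, Rgs10 and Sp3os), Thbs1 (Cotl1, Pitpna and Actg1) and Saa3 (S100a13, Sugt1 and Plxnd1) had nearest genes at r of 0.70 to 0.92. Of the sequence relatives, Saa1, Saa2, Saa4, Thbs2, Thbs4 and F13b were at 0 in every library.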

How the data were processed

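Poly(A) RNA of sorted mouse monocytes and progenitors was sequenced in 67 libraries. Per the submitters' processing notes, bcl2fastq, HISAT 0.1.5, SAMtools, HOMER and mm9 were used; counting options and annotation are not given in the sources used here. The deposited signal of the 7-week and knockout tables consists of whole reads scaled to a common total, assumed to be 10000000, so that RPM is the value divided by 10; 100% of values came out whole within 0.1 read (for 1 Ly6Cint library the step cannot be told). The deposited transfer table holds a score, rounded values scaled to a common total, which was turned into RPM by the column sum; its reads are unknown.

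Groups were taken from the labels. limma 3.58.1 (R 4.3.3, trend) was fitted on log2(RPM + 1) to all libraries of a table, after a filter of 2 RPM in at least 3 (7-week) or 2 libraries, which left 11373, 11388 and 12096 genes, with Benjamini-Hochberg adjustment over all of them. Groups of 2 libraries borrow their spread from the other groups, and where 1 of 2 is left out the lone sample is assumed to vary like the other groups. On the recovered reads edgeR 4.0.16 and DESeq2 1.42.0 were run as alternatives, and the fit was tested on simulated data. The members and gene lists were chosen with earlier results of these data known. Named were the 10 members, the 3 non-members nearest to each by Pearson r in the 7-week table, up to 4 called genes per list and comparison by smallest p, Cebpb, and sequence relatives. One gene that this rule names is not reported here. Lengths are of GENCODE transcripts, and promoters are from RefSeq.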

Additional observations from a re-analysis of the deposited data

Results flagged for a closer look

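Over 39 pairs of a gene and a group of 4 libraries, 1 library stood apart from the others in 11. Chance gives about 1 in 20 for continuous values, a rate that does not hold where 1 library has a read or 2 and the others 0, as in the values under 1 RPM here. In marrow Ly6C- cells these were Chil3 in replicate 2 (82.3 RPM, the others 48.0 to 50.8), Chil1 and Saa3 in replicate 2 (0.653 RPM each, the others 0) and Thbs1 and Vcan in replicate 1 (0.498 RPM each, the others 0). In MDP they were Fn1 in replicate 1 (19.9 RPM, the others 10.8 to 11.03), Lyz2 in replicate 1 (138 RPM, the others 58.6 to 66.5), Vcan in replicate 1 (0.394 RPM, the others 0) and Thbs1 in replicate 4 (0.270 RPM, the others 0). Thbs1 also stood apart in cMoP replicate 3 (0.303 RPM, the others 0) and in blood Ly6C+ replicate 3 (7.04 RPM, the others 3.84 to 4.30).

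The difference of Ly6C- from Ly6C+ cells was not the same in 7-week blood and marrow for 4 genes by limma's interaction test (adjusted p under the threshold): Fn1 (3.46 on the log2 scale) and Thbs1 (2.12) kept more in blood, and Chil3 (-1.62) and Hp (-1.20) kept more in marrow.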

How the results depend on the processing

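Of 4012 member values under other settings, 3736 stayed on their side of the threshold, 188 lost the call, 87 gained one, and 1 turned: Lyz2 in blood grafts at 36 h was called lower after quantile normalization (-0.68). Among the 3736, 85 changed sign without being called in either fit. Numbers of called members were within 1.5 times for 239 of 271 settings that kept all libraries.

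The exceptions were as follows. Blood over marrow Ly6C+ went from 2 to 1 with a pseudocount of 0.5, no filter, a filter of 10 RPM, array weights, the groups compared only, and scaling to the listed genes. In ko Ly6C+ cells 3 became 6 with array weights and 8 with the groups compared only, and in ko Ly6Cint cells 5 became 3 with no filter or the groups only. Genotype by sort went from 0 to 1 with a pseudocount of 4 and to 2 with DESeq2. In blood grafts, 36 over 24 h went from 1 to 0 with no filter, array weights or the groups only and to 2 with a filter of 10, and 48 over 36 h from 3 to 1 with no filter or array weights and to 0 with the groups only. Host blood went from 6 to 10 with array weights, and blood grafts at 48 h over host Ly6C- from 4 to 2 with array weights and 0 with the groups only. Spleen grafts at 24 h went from 2 to 4 with quantile normalization, a pseudocount of 4, array weights or the groups only, at 36 h from 5 to 8 with quantile normalization, and 48 over 36 h from 1 to 2 with a pseudocount of 4 or the replicate block and to 0 with the groups only. Spleen grafts at 48 h over host Ly6C- went from 4 to 2 with array weights or the groups only. The cause was not tested.

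With 1 library left out, the called members numbered 3 to 4 (cMoP over MDP), 7 (marrow Ly6C+ over cMoP), 0 to 2 (blood over marrow), 8 (marrow Ly6C-), 8 (blood Ly6Cint), 2 to 5 (Ly6C- over Ly6Cint), 7 (blood Ly6C-), 4 to 5 (tissue by sort), 0 to 1 (ko Ly6C+), 2 to 4 (ko Ly6Cint), 9 to 10 (16-week wt) and 0 (genotype by sort). In blood grafts they were 3 to 7, 2 to 3 and 7 to 8 at 24, 36 and 48 h, 0 to 2 (36 over 24 h), 1 to 3 (48 over 36 h), 5 to 6 (host) and 1 to 5 (over host). In spleen they were 1 to 3, 3 to 5 and 6 to 8, 0 (36 over 24 h), 1 (48 over 36 h), 4 to 6 (host) and 1 to 4 (over host), and 0 to 2 for spleen over blood.

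Same-numbered libraries were not shown to be paired (r from -0.283 to 0.385), and the replicate block left 14 of 18 counts as they were; with the 2 ko Ly6Cint numbers crossed, chosen after seeing the data, 5 members were called. Over all genes, limma, edgeR and DESeq2 called 3092, 1976 and 2288 for blood Ly6Cint over Ly6C+, 1009, 394 and 625 for Ly6C- over Ly6Cint, and 1, 2 and 39 for genotype by sort. Depth limits Vcan, Saa3 and Thbs1, which often rest on under 50 reads.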
